A study of Mus musculus with 9 samples.

Results

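Twist1 and Twist2, their E-protein partners Tcf3 (E2A), Tcf4 (E2-2) and Tcf12 (HEB), and the inhibitors Id1, Id2, Id3 and Id4 were followed in RNA sequencing of mouse embryo skull tissue at E14.5. These 9 genes were chosen by name as members of one network of basic helix-loop-helix (bHLH) factors, and all 9 were found among the 43548 gene identifiers of the table and passed the filter on low values. Tissue came from 3 groups of 3 libraries each. The MCAGF8 cranial vault carried Msx2-Cre, which is active in the surface ectoderm of the head, together with CAGF8, an Fgf8b allele at Rosa26 that is expressed once Cre removes a stop cassette. The skin, where Cre acts, was peeled off before the vault tissue was collected, so the sampled mesenchyme lay beneath the source of Fgf8b. Control tissue was the cranial vault and the cartilage of the cranial base, the latter taken once the brain was out, both from embryos without Cre, labelled wildtype on a mixed background, which under the cross described also held a silent CAGF8 allele. Each library was a pool of 3 tissue samples, 9 tissue samples per group, so every SD given here is the spread between pools. Control embryos gave first vault and then base tissue, and how the pools match by embryo is not stated.

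A bHLH factor binds DNA as a dimer. TWIST1 and TWIST2 pair with the widely expressed E-proteins or with each other, and the dimers recognise the E-box. ID proteins have the dimerization domain without the basic region, so they bind E-proteins and hold them away from DNA and from tissue-specific partners such as the Twist factors. In the skull, Twist1 keeps suture mesenchyme undifferentiated, both Twist factors hold back RUNX2 in osteoblast precursors, and loss of one copy of TWIST1 or TCF12 in people can lead to fusion of the coronal suture. Id genes are classical early targets of BMP-SMAD signalling.

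The labelled tissues were compared with their defining markers. Expression is given throughout as FPKM, read numbers scaled to transcript length and to library size, so levels of different genes are compared per length. Summed over 11 osteoblast genes, expression was between 3998 and 7242 FPKM in the control vault, between 2203 and 2911 in the MCAGF8 vault and between 977 and 2361 in the base. The base sum was low although 10 of the 11 genes were higher in the base than in the MCAGF8 vault (median log2 difference 1.502). Of the 11, 5 were called higher and 1 lower (background 8.39% of all tested genes), so the sum and the count point in opposite directions. Between the vaults all 11 were lower with MCAGF8 and 7 were called (background 0.604%). Summed over 14 chondrocyte genes, the base libraries stood at 1308, 11674 and 1812 FPKM. The sum was 3144 to 5798 in the MCAGF8 vault and 2345 to 3390 in the control vault, so that replicate 2 of the base alone lay above the vault libraries. Between the vaults 12 of the 14 were higher with MCAGF8 (median log2 difference 0.72), with none called and 1 at an unadjusted p under 0.05 (background 6.34%). Base replicate 2 also had the smallest sum of 12 skeletal muscle genes in its group, 1811 FPKM against 11421 and 4804. The base libraries labelled cartilage therefore differed among themselves in chondrocyte and muscle RNA. Endogenous and transgenic Fgf8 could not be told apart in these values. Fgf8 was 19.5, 9.43 and 13.0 FPKM in the MCAGF8 vault and 13.5, 8.25 and 3.01 in the control vault, and these groups overlapped.

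The promoters of the 3 genes with the largest spread over the 9 libraries are shown first. Each is the RefSeq window from 250 bases before to 50 bases after the annotated start, build GRCm38.p6, read 5′ to 3′ on the gene's strand, and the RefSeq start can differ from the GENCODE start used for gene positions. Capitals mark CCAAT, on either strand (as ATTGG on the other), a motif picked after the windows had been read.
Twist1, chr12:33957421-33957720, plus strand: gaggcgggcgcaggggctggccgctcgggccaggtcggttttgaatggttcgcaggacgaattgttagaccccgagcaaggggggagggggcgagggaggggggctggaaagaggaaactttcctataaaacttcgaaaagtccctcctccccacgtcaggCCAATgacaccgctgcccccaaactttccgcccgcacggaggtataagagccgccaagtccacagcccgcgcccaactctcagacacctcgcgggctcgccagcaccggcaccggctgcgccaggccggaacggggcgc
Twist2, chr1:91801211-91801510, plus strand: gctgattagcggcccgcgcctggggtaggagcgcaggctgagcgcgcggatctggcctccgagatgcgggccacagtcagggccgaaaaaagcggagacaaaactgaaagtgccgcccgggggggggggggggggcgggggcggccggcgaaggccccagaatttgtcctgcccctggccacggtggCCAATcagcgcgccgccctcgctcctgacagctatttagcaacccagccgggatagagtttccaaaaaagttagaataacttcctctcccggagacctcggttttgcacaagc
Id4, chr13:48260866-48261165, plus strand: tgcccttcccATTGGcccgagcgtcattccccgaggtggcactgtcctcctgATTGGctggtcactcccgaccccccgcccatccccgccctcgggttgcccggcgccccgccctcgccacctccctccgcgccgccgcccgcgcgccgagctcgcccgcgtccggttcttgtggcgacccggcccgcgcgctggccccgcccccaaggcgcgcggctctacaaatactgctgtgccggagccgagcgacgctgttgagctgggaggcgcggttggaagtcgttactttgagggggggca
All 3 windows were rich in G and C, at 66%, 64.7% and 73.3% against a median of 52.7% over 32851 promoter windows of the same length. Counted from the start, CCAAT began at position -89 in Twist1 and -63 in Twist2, and ATTGG began at -240 and -198 in Id4. Of all windows, 37.4% held CCAAT on either strand. The E-box CANNTG, whose letters read the same on both strands, was in none of these 3 windows, while 72.3% of all windows held at least 1. A window was given for 7 of the 9 genes. Id3 also had no CANNTG, Id2 had CAGCTG at -196, and Tcf3 had CACTTG at -54. Tcf12 had 3 windows, for 3 starts, holding CATGTG at -5 in one, CAAGTG at -149 and CACTTG at 18 in another, and CAGCTG at -240 in the last. CCAAT was not particular to the windows shown. Id2 had ATTGG at -159 and CCAAT at -120 and -76. The Tcf12 window with CATGTG had ATTGG at -238 and CCAAT at -118. Tcf3, Id3 and the other Tcf12 windows had none. No binding was measured here, and the letters are a description of these windows alone.

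Twist2 had the largest difference of the 9 genes between the MCAGF8 and the control vault, and its control base and control vault libraries overlapped. Twist2 (ENSMUSG00000007805, chr1:91801461-91848028, GENCODE on GRCm38) was 97.4, 120 and 109 FPKM in the MCAGF8 vault, 28.8, 39.6 and 36.5 in the control vault, and 43.5, 14.8 and 30.2 in the control base. All 3 MCAGF8 libraries lay above all 6 control libraries. The mean of the MCAGF8 vault, 109 ± 11.5 FPKM (SD, n = 3), was 3.12 times that of the control vault, 35.0 ± 5.57 FPKM. On the scale log2(FPKM + 1) the difference was 1.62 (SE 0.33, 95% interval 0.88 to 2.36), with an adjusted p of 0.110 from limma over the 18714 genes tested, just outside the threshold. Called here means an unadjusted p under 0.05 together with an adjusted p (Benjamini-Hochberg) under 0.1 from limma fitted to all 9 libraries.

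Whether Twist2 was called between the vaults differed with the libraries that entered the shared estimate of error and with the processing. With the vault libraries alone the adjusted p from limma was 0.0336, without base replicate 2 it was 0.0175, and without base replicate 1 it was 0.0797. Over all genes these fits called 174, 231 and 77 in place of 113. With all 9 libraries kept, Twist2 was also called with a pseudocount of 0.1 (adjusted p = 0.0853) or 0.01 (0.0890) and with quantile normalization (0.0970). It was further called with a common FPKM sum (0.0246) and with a trend with length and GC removed (0.0631), all from limma. Over 20 alternatives the difference was between 1.49 and 1.79, the adjusted p was between 0.0175 and 0.433, and Twist2 passed in 8. Twist2 had been singled out by the study from these same libraries, so its direction is not independent evidence. In rank, Twist2 stood above 72.4% of tested genes in the control vault and above 91.7% in the MCAGF8 vault.

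Twist2 was lower in the base than in the MCAGF8 vault. The log2 difference of base minus MCAGF8 vault was -1.97 (SE 0.33, 95% interval -2.71 to -1.23), called at an adjusted p of 0.0116 (limma), and it was called in 20 of 20 alternatives. Between base and control vault it was -0.35 (SE 0.33), with an adjusted p of 0.812, and the 95% interval of -1.09 to 0.39 covered a change in either direction. Without base replicate 2 that difference was 0.062, so the MCAGF8 vault stood highest and the order of the control tissues rested on 1 library.

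Twist1 (ENSMUSG00000035799, chr12:33957671-33959829), the Twist factor whose loss causes coronal synostosis, was the more highly expressed of the pair in every library. It was 236, 296 and 176 FPKM in the MCAGF8 vault, 142, 149 and 189 in the control vault, and 145, 51.2 and 110 in the base. One control vault library lay within the MCAGF8 range, whereas all base libraries lay below all MCAGF8 libraries. Between the vaults the log2 difference was 0.54 (SE 0.36, 95% interval -0.27 to 1.34, adjusted p = 0.969 by limma). Base minus MCAGF8 vault was -1.29 (SE 0.36, 95% interval -2.10 to -0.49), called at an adjusted p of 0.0776 (limma). That call was lost, at adjusted p from 0.113 to 0.232, without base replicate 3, without any 1 MCAGF8 library or without any 1 control vault library, and it passed in 9 of 20 alternatives. Base replicate 2 was the lowest library for both Twist genes, and without it the difference was -0.86, with an adjusted p of 0.0491 (limma). Base minus control vault was -0.76 (SE 0.36, 95% interval -1.56 to 0.05), with an adjusted p of 0.436. Without base replicate 2 it was -0.33, with an adjusted p of 0.503, and with a trend with length and GC removed, an alternative described with the E-protein genes, it was -0.91 and called at an adjusted p of 0.0751 (limma).

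**Figure D1:**
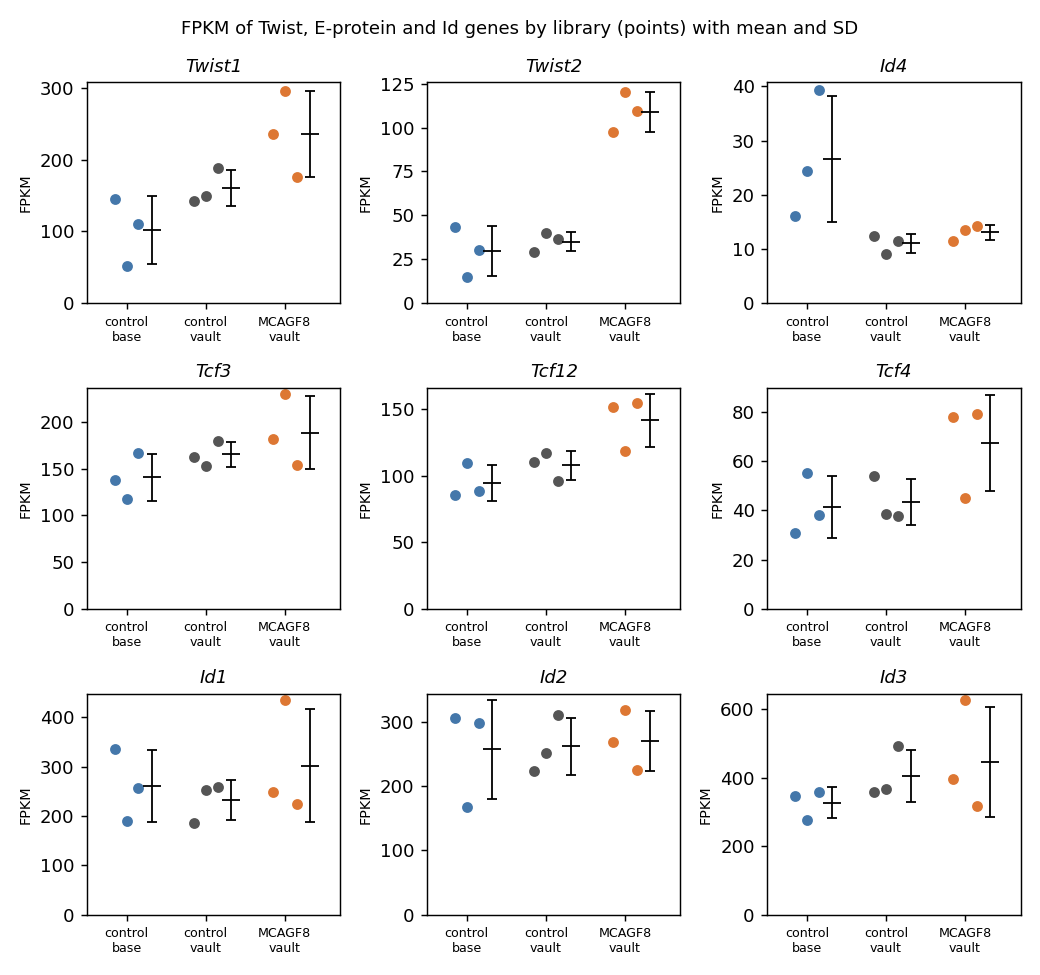
Expression of the 9 genes in FPKM (vertical axis, linear from 0) for each library (points) of the control base, the control vault and the MCAGF8 vault, with the group mean and SD beside the points (n = 3 each). Twist2 in the MCAGF8 vault sits between 97.4 and 120 FPKM, above all control libraries, and Id4 sits highest in the base, between 16.1 and 39.2 FPKM, while Id1, Id2 and Id3 overlap among all groups.

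The share of Twist2 within the summed FPKM of both Twist genes separated all 3 groups. It was 29.2%, 28.9% and 38.3% in the MCAGF8 vault, 16.8%, 21.02% and 16.2% in the control vault, and 23.0%, 22.4% and 21.5% in the base. The control vault libraries were all lowest and the MCAGF8 libraries all highest, although Twist1 and Twist2 each overlapped between the control tissues. The control tissues were only narrowly apart, at 21.02% in control vault replicate 2 and 21.5% in base replicate 3. This ratio within a library is a description and carries no test.

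Markers of neighbouring tissues were set beside Twist2, and they did not all follow it. Twist2 is also known in the dermis, and 9 dermal genes summed to between 5632 and 5776 FPKM in the MCAGF8 vault, between 4410 and 5169 in the control vault and between 2035 and 2900 in the base, with 6 of 9 higher in the MCAGF8 than in the control vault and none called in that comparison (2 at an unadjusted p under 0.05). Of 12 epidermal genes, 11 were higher in the MCAGF8 than in the control vault, at a median log2 difference of 2.66. Of the 12, 2 were called and 10 had an unadjusted p under 0.05, against 0.604% and 6.34% of all tested genes. Their sum was between 445 and 1095 FPKM against 35.3 to 122, in vault tissue collected after the skin was peeled off. In the base the epidermal sum was between 122 and 797 FPKM, reaching above 2 of the MCAGF8 libraries, while Twist2 in those base libraries was at most 43.5. None of the dermal or epidermal genes was at 0 in every library. Skeletal muscle genes summed to 55.1 to 223 FPKM in the MCAGF8 vault and 954 to 5954 in the control vault, with all 12 lower. Melanocyte genes (6) summed to 19.9 to 24.0 FPKM in the MCAGF8 vault, 2.86 to 4.75 in the control vault and 1.88 to 18.8 in the base, and of the 5 tested all were higher in the MCAGF8 than in the control vault and 1 was called. The sum of 10 endothelial genes was 550.3 to 691 FPKM in the MCAGF8 vault, 464 to 544 in the control vault and 411 to 488 in the base, with 9 of 10 higher between the vaults and none called (1 at an unadjusted p under 0.05). The part of these tissues in the Twist2 difference was not tested, and in such bulk tissue fewer cells of a type cannot be told apart from less RNA per cell.

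The E-protein genes were expressed at levels like those of the Twist genes, and none was called in any comparison, although Tcf4 and Tcf12 had an unadjusted p under 0.05 in base against MCAGF8 vault. Tcf12 (ENSMUSG00000032228, chr9:71842688-72111871, minus strand), the partner of TWIST1 whose loss also fuses the coronal suture, was 152, 119 and 154 FPKM in the MCAGF8 vault, 110, 117 and 95.9 in the control vault, and 85.1, 109.7 and 88.1 in the base. The MCAGF8 libraries lay above all control libraries, but the lowest of them, 118.8, stood close to the highest control vault library, 117.3. The log2 difference between the vaults was 0.39 (SE 0.18, 95% interval -0.02 to 0.80, adjusted p = 0.838 by limma), and base minus MCAGF8 vault was -0.58 (SE 0.18, 95% interval -0.99 to -0.17, adjusted p = 0.113 by limma). Without base replicate 2 the latter was -0.69 and was called, at an adjusted p of 0.0313. In that fit 4580 of all genes were called in this comparison, in place of 1571.

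Tcf4 (ENSMUSG00000053477, chr18:69343356-69689079), the least abundant E-protein gene here, was 78.1, 45.0 and 79.1 FPKM in the MCAGF8 vault, 54.2, 38.5 and 37.6 in the control vault, and 30.8, 55.1 and 38.1 in the base. MCAGF8 replicate 2 lay within the control range, and the log2 difference between the vaults was 0.60 (SE 0.29, 95% interval -0.05 to 1.24, adjusted p = 0.854 by limma). Base minus MCAGF8 vault was -0.69 (SE 0.29), with an adjusted p of 0.227. Without base replicate 2, the fit with 4580 genes called, it was -0.91 and called, at an adjusted p of 0.0601 by limma. Tcf3 (ENSMUSG00000020167, chr10:80409514-80433647, minus strand), which encodes E12 and E47, was 182, 230.4 and 154 FPKM in the MCAGF8 vault, 163, 153 and 180.1 in the control vault, and 138, 118 and 167 in the base. All 3 groups overlapped, with log2 differences of 0.17 (SE 0.21) between the vaults and -0.41 (SE 0.21) for base minus MCAGF8 vault, at adjusted p of 0.971 and 0.310 from limma. Against the control vault the base differed by -0.24 for Tcf3, -0.09 for Tcf4 and -0.19 for Tcf12, with adjusted p from 0.786 to 0.977. Without base replicate 2 these were -0.12 for Tcf3 and -0.31 for Tcf4, and without base replicate 1 Tcf4 was 0.096.

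In replicate 2 of the MCAGF8 vault and of the base, Tcf3 stood opposite to Tcf4 and Tcf12. MCAGF8 replicate 2 had the most Tcf3 of all 9 libraries and the least Tcf4 and Tcf12 of its group, and base replicate 2 had the least Tcf3 and the most Tcf4 and Tcf12 of its group. The longest annotated transcripts of Tcf4 and Tcf12 have 8577 and 6299 bases with 40.9% and 44.4% GC, and that of Tcf3 has 2950 bases with 61.0% GC. Each library's trend of expression with GC content over 18568 genes was 0.249 log2 units per 10 percentage points of GC in MCAGF8 replicate 2 and -0.225 in base replicate 2. Base replicate 3, at 0.241, had the most Tcf3 of its group, and the other 6 libraries lay between -0.139 and 0.1. Base replicate 3 exceeded base replicate 1 for all of the E-protein genes. Base replicate 1, the lowest library for Tcf4 and Tcf12, had the steepest trend with length, at -0.246 log2 units per doubling, while the other 8 lay between -0.071 and 0.11. The part of these trends in the values of single genes was not tested. A trend with length and GC was removed from each library in an alternative added after the data had been seen. In that fit the SE went from 0.29 to 0.11 for Tcf4, from 0.21 to 0.12 for Tcf3 and from 0.29 to 0.30 for Id4. Base minus MCAGF8 vault was called for Tcf3 (-0.51, adjusted p = 0.0338), Tcf4 (-0.68, adjusted p = 0.00866) and Tcf12 (-0.55, adjusted p = 0.0233) with limma. Calls over all genes rose as well in that comparison, from 1571 to 2920. Base minus control vault was called for Tcf3 (-0.42, adjusted p = 0.0938 by limma), where calls over all genes rose from 573 to 1655. Between the vaults no E-protein gene was called in that fit either, and Tcf4 had the smallest adjusted p, 0.123 at a difference of 0.52.

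Summed over Tcf3, Tcf4 and Tcf12, the libraries varied less. The sum was 412, 394 and 387 FPKM in the MCAGF8 vault, 327, 309 and 314 in the control vault, and 254, 282 and 294 in the base. The 3 groups did not overlap, with means of 398 ± 12.7, 317 ± 9.35 and 277 ± 20.5 FPKM (SD, n = 3). These FPKM were not rescaled, while library totals ran from 793249 in base replicate 2 to 1315981 in base replicate 1. The separation therefore stands for FPKM as deposited, and it was not examined after rescaling. Tcf3 made up between 39.7% and 58.4% of this sum, Tcf12 between 30.0% and 39.9% and Tcf4 between 11.4% and 20.4%.

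**Figure D2:**
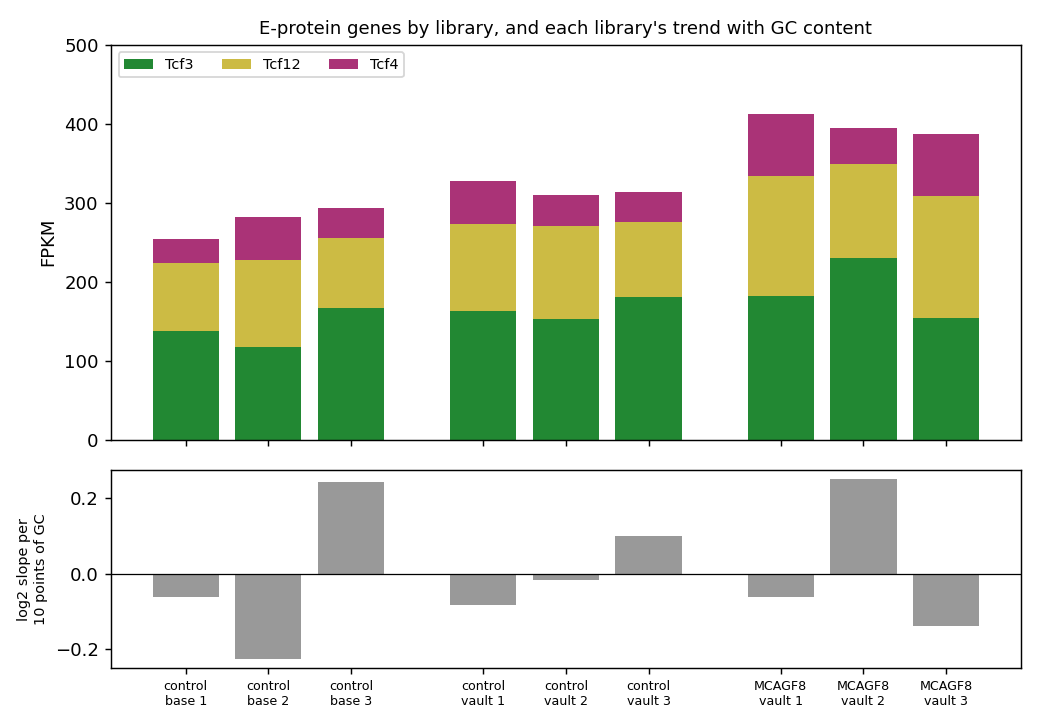
Upper panel, stacked FPKM of Tcf3, Tcf12 and Tcf4 in each of the 9 libraries (linear from 0). Lower panel, each library's slope of expression with GC content, in log2 units per 10 percentage points of GC, where the bars reach 0.249 in MCAGF8 replicate 2 and -0.225 in base replicate 2, the libraries with the largest and the smallest Tcf3 bars.

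Among the inhibitors, Id4 had the largest differences between base and vault without a call, whereas Id1, Id2 and Id3 were abundant in all tissues. Id4 (ENSMUSG00000021379, chr13:48261228-48266026), which is known to promote osteoblast differentiation, was 16.1, 24.4 and 39.2 FPKM in the base, 12.4, 9.09 and 11.5 in the control vault, and 11.5, 13.5 and 14.2 in the MCAGF8 vault. All base libraries lay above all vault libraries, and the vault groups overlapped. Base minus control vault was 1.12 (SE 0.29, 95% interval 0.46 to 1.78), with a ratio of means of 2.42 and an adjusted p of 0.107 from limma, outside the threshold. Over 20 alternatives this difference was between 0.81 and 1.43 with adjusted p from 0.0286 to 0.307. It was called in 5, one of them the fit without base replicate 1 (adjusted p = 0.0286), where 934 of all genes were called in place of 573. Base minus MCAGF8 vault was 0.89 (SE 0.29, adjusted p = 0.130 by limma), which became 1.19 and a call without base replicate 1 (adjusted p = 0.0357) and 0.57 without base replicate 3 (adjusted p = 0.250). MCAGF8 minus control vault was 0.23 (SE 0.29, 95% interval -0.43 to 0.89, adjusted p = 0.975).

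Summed neuronal markers, like Id4, were higher in every base library than in every vault library, and Id4 is also known in neural tissue. The sum of 10 neuronal genes was 537, 506 and 1654 FPKM in the base, against 155 to 206 in the MCAGF8 vault and 115 to 194 in the control vault. Base replicate 3 was highest both for these genes and for Id4, whereas base replicate 2 had more Id4 than replicate 1 and a smaller neuronal sum. All 10 were higher in the base than in the MCAGF8 vault and 8 were called, against 8.39% of all tested genes. Compared with the control vault 9 were higher and 5 were called, against 3.06% of all tested genes. None of the neuronal genes was at 0 in every library, and their part in the Id4 difference was not tested.

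Id3 (ENSMUSG00000007872, chr4:136143497-136145755), a BMP target that sequesters E-proteins, was the most abundant of the 9 genes in every group. It was 396, 626 and 317 FPKM in the MCAGF8 vault, 358, 366 and 491 in the control vault, and 346, 275 and 359 in the base, and the groups overlapped. In the control vault Id3 stood above 98.1% of the tested genes and Id4 above 46.3%. Id1 (ENSMUSG00000042745, chr2:152736251-152737410) was 248, 434 and 224 FPKM in the MCAGF8 vault, 187, 252 and 258 in the control vault, and 336, 189 and 257 in the base. Id2 (ENSMUSG00000020644, chr12:25093799-25097140, minus strand) was 269, 318 and 224 FPKM in the MCAGF8 vault, 223, 252 and 309.6 in the control vault, and 306, 168 and 297 in the base. All groups overlapped for both genes.

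MCAGF8 minus control vault was 0.33 for Id1 (95% interval -0.36 to 1.01), 0.05 for Id2 (-0.56 to 0.65) and 0.10 for Id3 (-0.53 to 0.72) on the log2 scale, with adjusted p of 0.969, 0.994 and 0.990 from limma. Each interval covered changes in either direction. Base minus control vault was 0.14 for Id1, -0.06 for Id2 and -0.30 for Id3, and base minus MCAGF8 vault was -0.19, -0.11 and -0.40, with adjusted p from 0.473 to 0.982. Without base replicate 2, Id2 was 0.22 against the control vault and 0.17 against the MCAGF8 vault, and Id1 was 0.35 and 0.024, and without base replicate 1, Id1 was -0.060 against the control vault. With the length and GC trend removed, Id3 was lower in the base than in the MCAGF8 vault (-0.68, adjusted p = 0.0582 by limma). MCAGF8 replicate 2 was the highest library of the series for Id1, Id2 and Id3, and base replicate 2 was the lowest for Id2 and Id3.

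Calls on the 9 genes were then set beside those on all genes. Between the MCAGF8 and the control vault 0 of 9 members were called with limma (background 0.604% of 18714 tested genes), 1 had an unadjusted p under 0.05 (Twist2, background 6.34%) and 2 did not overlap (Twist2 and Tcf12, background 19.2%). All 9 fitted differences had a positive sign in that comparison, where the median of all genes was -0.01, and those of Id2 and Id3 changed sign when 1 library was left out. Between base and control vault 0 were called (background 3.06%), 1 had an unadjusted p under 0.05 (Id4, background 12.8%) and 1 did not overlap (Id4, background 15.5%). Between base and MCAGF8 vault 2 were called, both lower in the base (Twist1 and Twist2, background 8.39% in either direction). In that comparison 5 members had an unadjusted p under 0.05 (background 19.6%), and 4 did not overlap (Twist1, Twist2, Tcf12 and Id4, background 21.9%). The comparisons share their libraries in pairs, so they are not independent of each other.

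**Figure D3:**
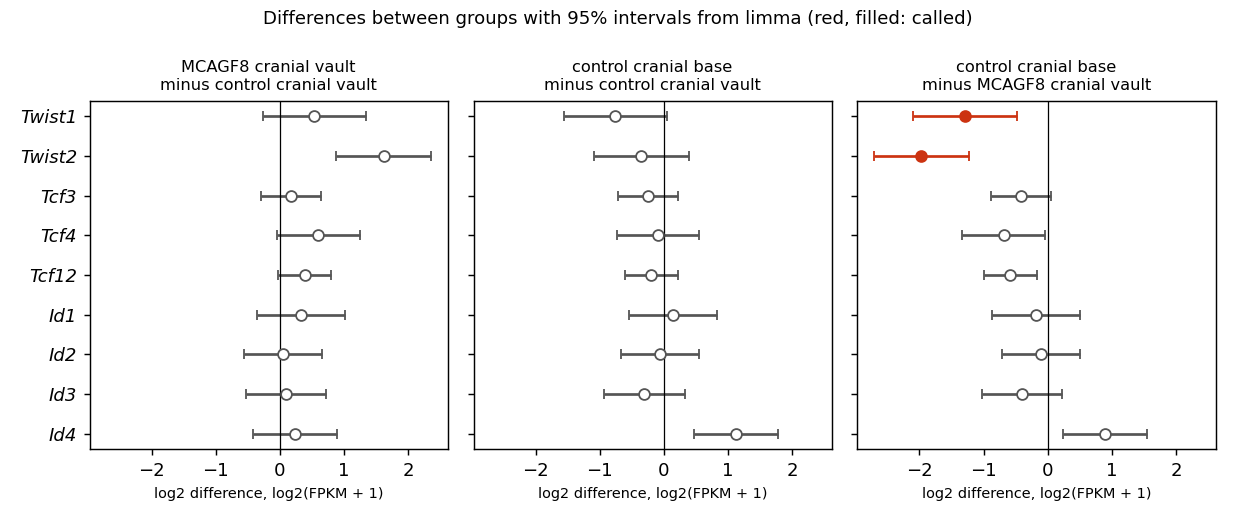
Differences on the scale log2(FPKM + 1) for the 9 genes in the 3 comparisons (horizontal axis), with 95% intervals from limma over all 9 libraries. Filled red points passed the threshold, which were Twist1 at -1.29 and Twist2 at -1.97 in base minus MCAGF8 vault, while Twist2 at 1.62 between the vaults and Id4 at 1.12 in base minus control vault have intervals clear of 0 but missed the adjusted threshold.

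The balance of inhibitors to Twist factors ordered the groups. Summed FPKM of Id1 to Id4 per summed FPKM of Twist1 and Twist2 was 2.77, 3.34 and 2.73 in the MCAGF8 vault, 4.56, 4.66 and 4.74 in the control vault, and 5.32, 9.96 and 6.78 in the base. No group overlapped another, and the control vault spread was the smallest (4.65 ± 0.0929, SD, n = 3). The Id sum itself overlapped among the groups, at 1031 ± 320 FPKM in the MCAGF8 vault, 909.8 ± 148 in the control vault and 871 ± 187 in the base, whereas the Twist sum was 345 ± 66.2, 195 ± 27.9 and 132 ± 61.8, with all MCAGF8 libraries above the control libraries and the control tissues overlapping. Id per E-protein gene expression, 2.59 ± 0.817, 2.88 ± 0.514 and 3.17 ± 0.815, overlapped in all groups. The ratios are of mRNA, not of protein, and carry no test.

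**Figure D4:**
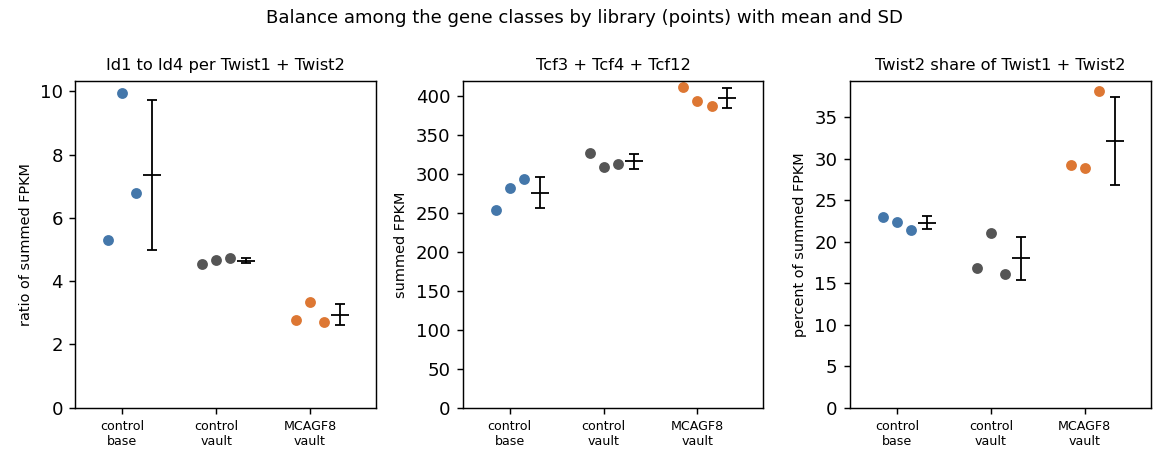
The 3 per-library quantities (points) with group mean and SD (n = 3), namely the ratio of summed Id to summed Twist FPKM, the summed E-protein FPKM, and Twist2 as a percent of both Twist genes, all on linear axes from 0. In each panel the 3 groups do not overlap, with the Id to Twist ratio lowest in the MCAGF8 vault (2.73 to 3.34) and highest in the base (5.32 to 9.96). The E-protein panel shows FPKM not rescaled between libraries. In the Twist2 panel the highest control vault library (21.02%) stands close to the lowest base library (21.5%).

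Genes with the pattern most like each member over the 9 libraries were found by the root mean square difference of centred log2(FPKM + 1) values among 12934 genes with a mean of at least 5 FPKM. For Twist2 these were Apcdd1 (0.334), a membrane inhibitor of Wnt signalling, Fzd10 (0.343), a Wnt receptor, and Nfam1 (0.404). Apcdd1 was 92.6, 84.7 and 84.4 FPKM in the MCAGF8 vault, 23.1, 24.7 and 25.3 in the control vault, and 31.9, 15.04 and 42.8 in the base. The MCAGF8 libraries lay above all others and base replicate 2 was lowest, a likeness to Twist2 that follows from how the gene was picked. Twist1 came at rank 16 for Twist2, at 0.490, whereas at that same distance Twist2 came at rank 578 for Twist1. For Twist1 the nearest were Pgm5 (0.158), Gm13640 and Col26a1, and for Id4 they were Dpysl4 (0.116), Grb14 (0.140) and Afap1l2 (0.159). Dpysl4 was 20.1 ± 10.8 FPKM in the base and 7.86 ± 1.23 in the control vault (SD, n = 3).

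The remaining members were flatter, and many genes lay close to them. The nearest were Slc25a20, Rab11b-ps2 and Kctd21 for Tcf3, Ankrd44, Trrap and Pabpc4l for Tcf4, and Nfia, Rnd3 and Pias3 for Tcf12. For the inhibitors they were Eid1, Gm12009 and Gm15725 for Id1, Hibadh, Eci2 and Msantd3 for Id2, and Rela, Slc9a3r2 and Hs1bp3 for Id3. Among the 9 members themselves the smallest distance was that of Tcf3 and Id3 (0.139), at rank 97 among the genes nearest to Id3 and rank 373 among those nearest to Tcf3. Tcf3 with Id2 (0.212), Id1 with Id2 (0.221), Id2 with Id3 (0.225) and Tcf4 with Tcf12 (0.226) came next. Libraries shared by all genes, with their own trends in length and GC, enter these distances.

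Genes around the network were read from lists written for this purpose. Of 22 tested genes linked to Twist in the suture or to the osteoblast programme, 14 were higher and 8 lower in the MCAGF8 than in the control vault, with a median log2 difference of 0.23 against -0.01 over all genes. Only Sp7, the osteoblast transcription factor osterix, was called there (background 0.604%), and it was lower (-2.25, SE 0.40, adjusted p = 0.0763 by limma). Sp7 was 17.5, 20.6 and 16.0 FPKM in the MCAGF8 vault, 105, 55.4 and 123 in the control vault, and 37.4, 26.9 and 80.5 in the base, with the MCAGF8 libraries below all others. Base minus control vault had a median of -0.42 against 0.07 over all genes, and 4 were called lower (background 3.06% in either direction). These were En1 (-2.71) and Prrx1 (-1.22), homeobox genes of the skull mesenchyme, the adhesion molecule Cdh11 (-0.97) and Runx2 (-0.91), the osteoblast regulator that Twist factors bind. Base minus MCAGF8 vault had a median of -0.50, with 7 called lower and none higher (background 8.39% in either direction). Among them were En1 (-2.25), Prrx1 (-1.52), Cdh11 (-1.21), Efnb1 (-1.10), an ephrin of the coronal boundary, and Notch2 (-1.08).

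Other targets and inhibitors of BMP-SMAD signalling, the pathway that drives Id genes, gave no call in the MCAGF8 against the control vault. Of 19 tested genes, 8 were higher and 11 lower there, at a median of -0.29 and with 5 at an unadjusted p under 0.05 (background 6.34%). The smallest p were those of Dlx5 (-1.08), Dlx3 (-1.70) and Bambi (-0.95), with adjusted p from 0.254 to 0.410 in limma. In the base Msx2, a homeobox target of BMP in the suture, was lower than in the control vault (-2.63) and than in the MCAGF8 vault (-3.19), at 10.7, 11.8 and 13.8 FPKM against 73.9 to 89.8 and 99.2 to 152. Msx1 was lower in the base than in the MCAGF8 vault (-2.61). Grem1, a BMP antagonist, was higher in the base than in the control vault (1.07) and than in the MCAGF8 vault (1.67), and Hey1 was higher than in the MCAGF8 vault (1.27), all called with limma.

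Of 39 other bHLH genes, which could share the E-protein partners, 31 were tested. Between the vaults 10 were higher and 21 lower with MCAGF8, at a median of -0.63. None was called with limma, although 11 had an unadjusted p under 0.05 (background 6.34%). The smallest p belonged to the myogenic factors Myod1 (-2.78), Myog (-3.74) and Myf5 (-1.73), with adjusted p from 0.177 to 0.184. Myog was 1.06, 4.26 and 19.0 FPKM in the MCAGF8 vault, 38.8, 199.9 and 63.7 in the control vault, and 237, 52.8 and 156 in the base, and its MCAGF8 libraries lay below all others as did the summed muscle genes. Base minus MCAGF8 vault had a median of 0.92, and 10 were called, all higher in the base (background 8.39% in either direction). They were led by Myog (4.39), Myod1 (3.26), Myf6 (3.05), the repressor Msc (2.81) and the limb and jaw factor Hand2 (2.11). Base minus control vault called 2 (background 3.06% in either direction), both higher in the base, Hand2 (2.79) and Bhlhe22 (1.11). Hand2 was 16.7, 1.58 and 7.26 FPKM in the base and in the control vault it was 0.0861 and 0.0567 with replicate 3 listed at 0.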

How the data were processed

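RNA was measured in 9 libraries of mouse embryo tissue. The authors pooled 9 tissue samples per group into 3 pools, made strand-specific libraries from poly(A) RNA for single-end sequencing, aligned reads by gSNAP and obtained gene values by Cufflinks, which the submitters' processing notes also name. One table was deposited, with FPKM for each Ensembl identifier and library. The authors compared groups by ANOVA. Genome build, annotation and versions were not given in the sources used here.

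Rows repeating an identifier (63) were summed, 9 genes with a placeholder in 17 cells were left out, no value column was unmapped, and FPKM were not rescaled. Under R 4.3.3, limma 3.58.1 (lmFit, contrasts.fit, eBayes with a trend) was fitted to log2(FPKM + 1) of 18714 genes whose mean FPKM reached 0.5, with 1 mean per group over all 9 libraries and two-sided tests adjusted over all genes. The pseudocount of 1 understates changes of low genes. The procedure was tested on simulated data. Ratios are of mean FPKM without a pseudocount. Tables and plots were made with Python 3.11.15, pandas 2.3.3, numpy 2.4.6 and matplotlib 3.10.9. Gene positions come from GENCODE M21 on GRCm38 and promoters from RefSeq on GRCm38.p6.

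Read numbers cannot be recovered from these FPKM, so the depth is unknown and counting intervals could not be computed. Precision rests on the SD of 3 pools, each averaging 3 samples. Libraries summed to between 793249 and 1315981 FPKM, and between 16006 and 17281 genes per library had at least 1 FPKM.

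The members and the gene lists were chosen with earlier results of these data known. Named were the 9 members, for each the 3 genes of nearest pattern, and from each list the called genes, at most the 5 of largest difference, or, with none called, the 3 of smallest p. Genes in clauses on markers and Fgf8 stand outside that rule. The alternatives were other pseudocounts (0.1, 0.01), no filter or a mean of at least 5 FPKM, quantile normalization, a common sum or median, only the libraries of both groups, the replicate number as a block, no moderation, other thresholds, each library left out, and, added after the data had been seen, removal of a length and GC trend.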

Additional observations from a re-analysis of the deposited data

How the results depend on the processing

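Between the MCAGF8 and the control vault the 0 members called became 1 with a pseudocount of 0.1 or 0.01, quantile normalization, a common sum, only the libraries of both groups, the length and GC trend removed, or an unadjusted p alone, and ranged from 0 to 1 with each library left out. Between base and control vault 0 became 1 with a pseudocount of 0.1, quantile normalization, a common median or an unadjusted p alone, became 3 with the trend removed, and ranged from 0 to 1. Between base and MCAGF8 vault 2 became 1 with no filter, only both groups, no moderation or an adjusted p under 0.05, became 3 with quantile normalization or a common sum (Tcf3 added) or a common median (Tcf12 added), became 5 with an unadjusted p alone and 6 with the trend removed, and ranged from 1 to 4, with 4 only without base replicate 2. Over all genes, calls between base and MCAGF8 vault rose from 1571 to 4580 without base replicate 2 and to 2920 with the trend removed. Between base and control vault they rose from 573 to 1655 with the trend removed. The cause was not tested.

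Correlations across genes between same-numbered libraries, taken as deviations from group means, ranged from -0.549 to 0.37. Those between differently numbered libraries ranged from -0.482 to 0.563. With 3 libraries per group and library trends with length and GC, these values cannot decide whether pools match by embryo. With the replicate block the base and MCAGF8 vault comparison called 1 member, Twist2 (adjusted p of 0.0442 by limma), and no longer Twist1 (0.154), the other comparisons called 0, and over all genes 19, 918 and 234 were called in place of 113 between the vaults, 1571 between base and MCAGF8 vault and 573 between base and control vault.

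Of the values of single members under an alternative, 489 kept direction and side of the threshold, 25 passed it anew, 11 no longer passed and 15 changed sign. With 1 library left out the log2 difference ranged from -0.078 to 0.17 for Id2 and from -0.18 to 0.31 for Id3 between the vaults. It ranged from -0.69 to 0.062 for Twist2, -0.31 to 0.10 for Tcf4, -0.060 to 0.35 for Id1 and -0.21 to 0.22 for Id2 in base minus control vault, and from -0.39 to 0.11 for Id1 and -0.26 to 0.17 for Id2 in base minus MCAGF8 vault. With the trend removed Id1 in base minus control vault was -0.0047. Rescaling to a common sum moved the median of all genes from -0.01 to 0.13 between the vaults and from 0.07 to -0.11 in base minus MCAGF8 vault.

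Counts over all genes also moved by more than 1.5 times. Between the vaults 113 became 191 and 192 with the smaller pseudocounts, 66 with no filter, 71 with at least 5 FPKM, 174 with both groups only, 0 with no moderation, 179 with the trend removed and 11 to 231 with a library left out. In base minus control vault 573 became 291 with at least 5 FPKM, 108 with both groups only, 257 with no moderation, 1655 with the trend removed and 132 to 1322 with a library left out. In base minus MCAGF8 vault 1571 became 834, 875, 869, 2920 and 559 to 4580 in the same order. Depth is unknown, and 3 pools per group limit every statement.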
